A study of Mus musculus with 13 samples.

Results

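The genes described here are 9 members of the fibroblast growth factor (FGF) pathway taken as a group: the receptor genes Fgfr1, Fgfr2 and Fgfr3, the decoy receptor gene Fgfrl1, the ligand genes Fgf1 and Fgf2, and the feedback and target genes Spry2, Spry4 and Etv5. The group was named with earlier results of these libraries known, and Fgfr2 was chosen by its low FPKM at 8 weeks, so its values are given as a description and were not tested. Of the 9 genes, 8 were listed in every expression table, among 14078 genes in all, and all 8 passed the filter on low counts. Fgf2 was not analysed here. The listed members have 12 transcript models that every table shares.

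The RNA came from adrenal glands of C57BL/6 mice in a model of lipoid congenital adrenal hyperplasia, in which TAM induction takes away Star, the gene of the protein that carries cholesterol into mitochondria for steroid synthesis. The 13 libraries comprise 5 taken before TAM, 4 taken 24 h after TAM and 4 taken 8 weeks after TAM. The way Star was deleted, the cells in which it was deleted and the age of the mice are not given in the sources used here. The labels do not say whether the libraries of a group came from separate animals, and a p-value therefore speaks only for the spread among the libraries. No glands given TAM without the deletion were analysed here, so effects of time, of TAM and of losing Star cannot be told apart.

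Listed reads ran from 17331673 to 27309429 per library, and the members together took 10658 to 17332 reads before TAM, 7679 to 12947 at 24 h and 4839 to 5823 at 8 weeks. Star, summed over its listed transcript models, stood at 3207 to 4239 FPKM before TAM, 17.4 to 626 FPKM at 24 h and 85.9 to 202 FPKM at 8 weeks, where FPKM is fragments scaled to transcript length and library total. Replicate 3 of the 24 h group stood apart, with the lowest summed cortex, medulla, endothelial and fat cell markers of its group, and replicate 4 of that group had medulla markers of 118 FPKM. Results that rest on these libraries are given with and without them.

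FGF ligands bind receptor tyrosine kinases at the cell surface together with heparan sulfate, and the receptors pass the signal through FRS2, RAS and RAF to the ERK MAP kinases. Active signalling raises ETV transcription factors, and it also raises Sprouty, SPRED and DUSP proteins that damp the same cascade. FGFR2 is known for a part in adrenal growth, since mice without its IIIb form have small adrenal glands. FGF1 and FGF2 are known as growth factors for adrenal cortical cells in culture.

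At 8 weeks after TAM the adrenal libraries held little Fgfr2 and little Etv5 messenger RNA, about 1.7-fold less Fgfr1, and more Fgfrl1 than before TAM. Fgf1, Spry2, Spry4 and Fgfr3 were not called at that time. Of the 7 members other than Fgfr2, 3 passed an adjusted p of 0.05 at 8 weeks against before (edgeR quasi-likelihood test with Benjamini-Hochberg adjustment over all genes), where 36.9% of all genes tested did. Of these, 1 was higher and 2 were lower, where 20.5% of all genes were called higher and 16.4% lower. At 24 h against before, 2 of the 7 passed, where 19.2% of all genes did: Spry2 was higher and Fgfr1 lower, beside 12.6% of all genes called higher and 6.63% lower. At 8 weeks against 24 h, 2 of the 7 passed, where 20.8% of all genes did. Both, Etv5 and Spry2, were lower, beside 10.1% of all genes called higher and 10.6% lower. With so few members these counts are close to the background shares, so the results lie in which genes moved and by how much. The comparisons at 24 h and at 8 weeks share the libraries from before TAM.

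The FPKM ranges of the groups gave a second view without a model. At 8 weeks and before TAM, 4 of the 7 members had ranges that did not overlap, and the same held for 44.6% of all genes. Fgfrl1 was the 1 higher, where 18.1% of all genes were, and Fgfr1, Spry4 and Etv5 were the 3 lower, where 26.5% were. At 24 h and before TAM, 3 of the 7 did not overlap, against 17.8% of all genes, with Fgfr3 and Fgfrl1 higher (9.75% of all genes) and Fgfr1 lower (8.01%). At 8 weeks and 24 h, 1 of the 7 did not overlap, against 23.2% of all genes, and it was Etv5, lower (13.3% of all genes, with 9.92% higher).

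**Figure D1:**
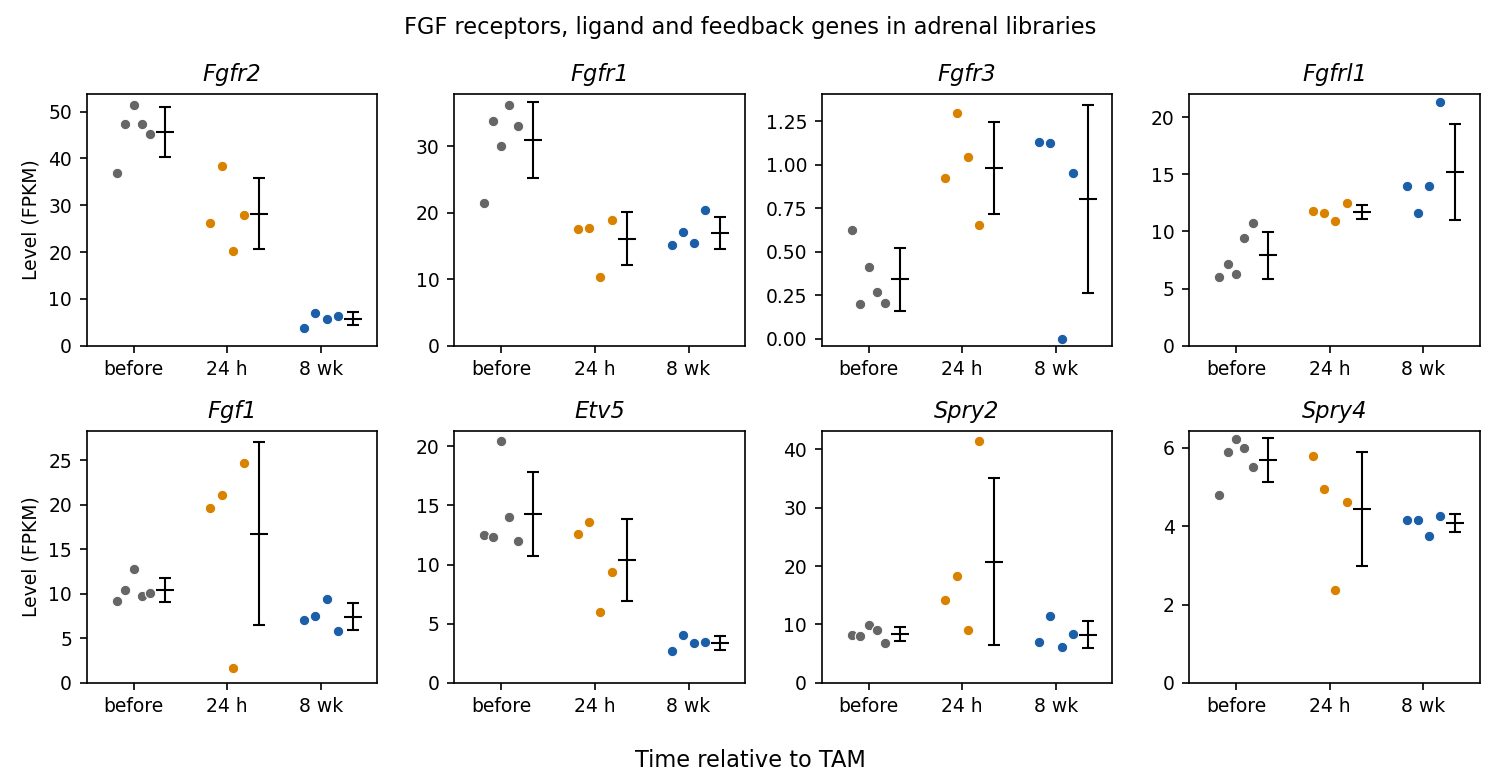
Levels of the 8 listed members in FPKM (vertical axes, a separate scale for each gene) before TAM, 24 h after it and 8 weeks after it. Each point is 1 library, and the cross bar with whiskers is the mean with its SD (n = 5, 4 and 4). The 4 libraries at 8 weeks lie below all 5 libraries from before TAM for Fgfr2, Fgfr1, Spry4 and Etv5, and above them for Fgfrl1.

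Fgfr2 lies on chromosome 7 from 130162451 to 130266808 of mm10 (GRCm38), on the minus strand, and the tables split it into a pair of transcript models. The long model (NM_010207) carries exon IIIc and the short one (NM_201601) carries exon IIIb. These mutually exclusive coding exons encode the C-terminal part of the third immunoglobulin-like domain, which sets the ligands that the receptor can bind. The IIIb form of FGFR2 is known to bind FGF7 and FGF10, made by connective tissue, among other ligands. The IIIc form binds FGF9 and its relatives, among others. The long model also holds a coding exon of 267 bases and one of 78 bases that the short model lacks. The exons together account for the 342 bases by which the models differ in width.

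Exon IIIb is shown because the short model, whose share is described next, carries it. It is an exon of 148 bases at chr7:130199758-130199905 of GRCm38, taken from the GENCODE transcript linked by name to the short RefSeq model. It is written 5′ to 3′ on the transcribed strand, in lower case throughout since no part of it is singled out.
Fgfr2 exon IIIb: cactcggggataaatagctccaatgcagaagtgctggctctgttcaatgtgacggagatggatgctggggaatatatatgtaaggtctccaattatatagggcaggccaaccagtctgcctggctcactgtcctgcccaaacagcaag
The models differ at 3 places at once, so reads from a receptor that mixes these choices are divided between the models by estimate.

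Fgfr2 stood at 36.9, 47.4, 51.5, 47.3 and 45.2 FPKM in the libraries from before TAM, at 26.2, 38.4, 20.3 and 27.9 FPKM at 24 h, and at 3.83, 7.10, 5.67 and 6.40 FPKM at 8 weeks. The 8-week libraries were below every other library, while the 24 h libraries overlapped those from before TAM. The mean at 8 weeks was 5.75 ± 1.41 FPKM (SD, n = 4) against 45.7 ± 5.40 FPKM before TAM (SD, n = 5), 7.94-fold lower, and the mean at 24 h was 28.2 ± 7.56 FPKM (SD, n = 4). On the log2 scale of the fit over all genes, the differences were −2.89 for 8 weeks over before and −0.67 for 24 h over before. These values chose the gene and carry no test.

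The long IIIc model made up most of Fgfr2 before TAM and the 2 models were at similar mean levels at 8 weeks. The IIIc model averaged 2.83 ± 1.51 FPKM at 8 weeks (SD, n = 4) against 35.2 ± 6.20 FPKM before TAM (SD, n = 5), 12.4-fold lower. The IIIb model averaged 2.92 ± 1.88 FPKM at 8 weeks against 10.4 ± 1.59 FPKM before TAM, 3.57-fold lower. At 24 h the IIIc model averaged 20.6 ± 6.03 FPKM and the IIIb model 7.58 ± 2.01 FPKM.

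The share of the short model in Fgfr2 averaged 23.3 ± 5.42% before TAM (SD, n = 5) and 27.3 ± 5.46% at 24 h (SD, n = 4). At 8 weeks it averaged 49.8 ± 22.9% (SD, n = 4). The short model also lacks coding exons of 267 and 78 bases, so its share is not that of exon IIIb alone. The share ran from 26.2% to 80.4% at 8 weeks. A library near the earlier level and a library mostly of the short model thus fell in the same group. These shares are estimates from shared reads of a gene chosen for its fall, and they were not tested.

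**Figure D2:**
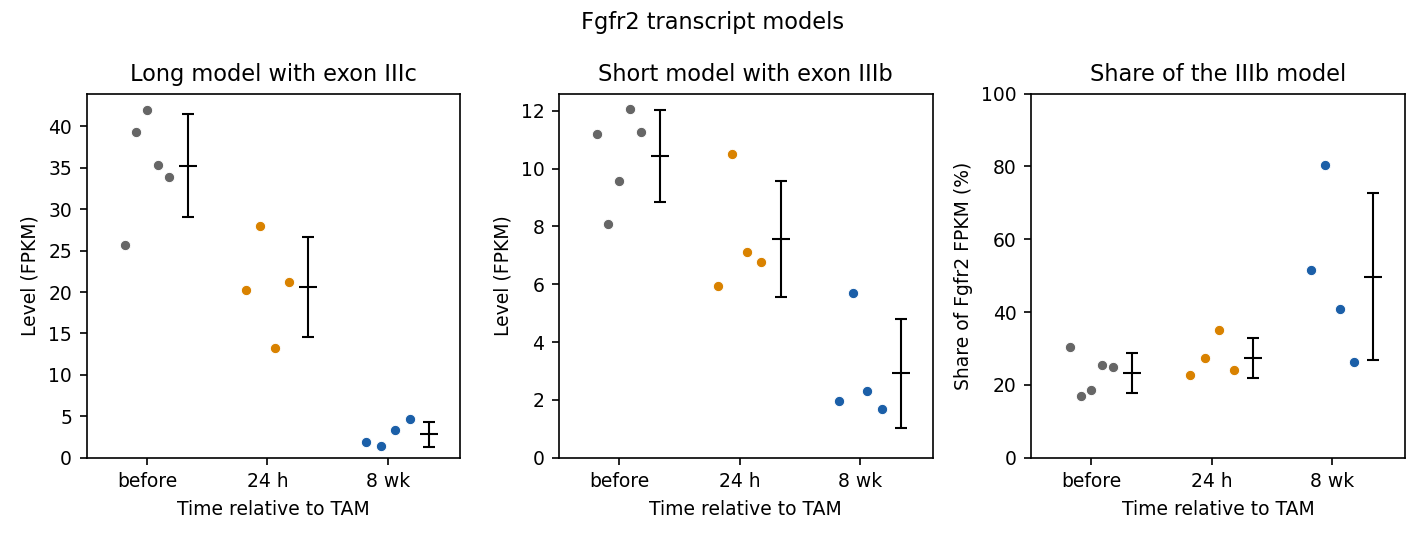
Levels of the long Fgfr2 model with exon IIIc and the short model with exon IIIb (FPKM, left and middle panels). The right panel gives the share of the short model in Fgfr2 (percent). Each library is shown before TAM, 24 h after it and 8 weeks after it, with mean and SD (n = 5, 4 and 4). The IIIc model averages 2.83 FPKM at 8 weeks against 35.2 FPKM before TAM. The share of the short model spreads from 26.2% to 80.4% at 8 weeks.

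Fgfr1, next to Fgfr2 in level before TAM, was lower at both later times. It stood at 21.5, 33.8, 30.0, 36.2 and 33.1 FPKM before TAM, at 17.6, 17.7, 10.3 and 19.0 FPKM at 24 h, and at 15.1, 17.1, 15.4 and 20.4 FPKM at 8 weeks. Every later library was below every library from before TAM, and the 24 h and 8-week libraries overlapped each other. The log2 fold change was −0.90 at 24 h against before (SE 0.21, edgeR quasi-likelihood test, adjusted p = 0.010) and −0.74 at 8 weeks against before (SE 0.21, edgeR, adjusted p = 0.015). At 8 weeks against 24 h it was 0.16 (edgeR, adjusted p = 0.63). Both falls kept adjusted p-values under 0.05 with each library left out in turn.

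Fgfr1 lies on chromosome 8 from 25518759 to 25575718 of mm10 on the plus strand, the same chromosome and strand as Star, and ends 232.8 kb before the start of Star. Its 3 transcript models differ in a coding exon of 267 bases, from 25555508 to 25555774, that encodes the first immunoglobulin-like loop, and in an exon that is 90 or 84 bases long. The model without the loop exon held 62.8 ± 18.0% of Fgfr1 FPKM at 8 weeks (SD, n = 4) against 47.7 ± 3.19% before TAM (SD, n = 5). That difference did not pass an exact two-sided permutation test (p = 0.22, adjusted p = 0.89 over 4 tests). At 24 h the share was 49.0 ± 6.47% (exact permutation test, p = 0.68, adjusted p = 0.89).

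The balance of the receptors moved with Fgfr2, which is a description since Fgfr2 enters it. Fgfr2 had 1.31 to 1.72 times the FPKM of Fgfr1 before TAM, 1.47 to 2.2 times at 24 h and 0.253 to 0.415 times at 8 weeks. It made up 48.4% to 51.1% of the summed FPKM of Fgfr1, Fgfr2, Fgfr3 and Fgfr4 before TAM, 53.8% to 62.6% at 24 h and 18.5% to 25.5% at 8 weeks. The ranges at 8 weeks lay apart from both earlier groups.

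Fgfr3, on chromosome 5 from 33722306 to 33737068 (plus strand), was scarce throughout. The 1 model of it that every table lists stood at 0.627, 0.197, 0.410, 0.270 and 0.207 FPKM before TAM, at 0.924, 1.29, 1.05 and 0.655 FPKM at 24 h, and at 1.13, 1.12 and 0.954 FPKM in 3 libraries at 8 weeks. It is listed at 0 in replicate 3 of the 8-week group. Another Fgfr3 model, NM_001205270, is listed only for the 24 h libraries, at 0.0922 to 0.506 FPKM. That model is not part of the values given here. All 24 h libraries were above those from before TAM. The log2 fold changes of 1.53 at 24 h (SE 0.77, edgeR, adjusted p = 0.20) and 1.32 at 8 weeks (SE 0.77, edgeR, adjusted p = 0.20) did not pass. Without the 8-week library listed at 0, they were 1.53 (edgeR, adjusted p = 0.014) and 1.73 (edgeR, adjusted p = 0.0059).

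Fgfrl1, a receptor-like gene whose protein binds FGF but has no kinase domain, lies on chromosome 5 from 108694229 to 108706950 (plus strand) and was higher at 8 weeks. It stood at 6.03, 7.16, 6.26, 9.41 and 10.7 FPKM before TAM, at 11.8, 11.6, 10.9 and 12.5 FPKM at 24 h, and at 14.001, 11.6, 13.9 and 21.3 FPKM at 8 weeks. All later libraries were above all libraries from before TAM. The log2 fold change was 1.07 at 8 weeks against before (SE 0.22, edgeR, adjusted p = 0.0023), and 0.59 at 24 h (SE 0.22, edgeR, adjusted p = 0.077). The value at 24 h passed without 24 h replicate 3 (0.68, edgeR, adjusted p = 0.044) and without replicate 5 from before TAM (0.74, edgeR, adjusted p = 0.045). The leading one of its 2 models held 68.0 ± 24.4% of its FPKM at 8 weeks against 73.9 ± 15.2% before TAM (exact permutation test, p = 0.71, adjusted p = 0.89).

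Fgf1, a ligand that can bind every FGF receptor, was not called in any comparison. It stood at 9.23, 10.4, 12.8, 9.73 and 10.1 FPKM before TAM, at 19.7, 21.1, 1.64 and 24.7 FPKM at 24 h, and at 7.09, 7.51, 9.40 and 5.81 FPKM at 8 weeks. Of the 24 h libraries, 3 were above every other library and replicate 3 was below every other library. The log2 fold change was 0.74 at 24 h against before (edgeR, adjusted p = 0.35), −0.34 at 8 weeks against before (edgeR, adjusted p = 0.63) and −1.08 at 8 weeks against 24 h (edgeR, adjusted p = 0.17). Without 24 h replicate 3, Fgf1 was higher at 24 h by 1.14 (edgeR, adjusted p = 0.0011) and lower at 8 weeks against 24 h, at −1.52 (edgeR, adjusted p = 0.00060).

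Etv5, an ETS transcription factor gene that FGF signalling raises in many tissues, lies on chromosome 16 from 22381313 to 22439570 (minus strand) and was lower at 8 weeks. It stood at 12.5, 12.4, 20.4, 14.02 and 12.0 FPKM before TAM, at 12.6, 13.6, 5.99 and 9.40 FPKM at 24 h, and at 2.66, 4.06, 3.34 and 3.42 FPKM at 8 weeks. The 8-week libraries were below every earlier library, and the 24 h libraries overlapped those from before TAM. The log2 fold change was −1.96 at 8 weeks against before (SE 0.27, edgeR, adjusted p = 0.00015) and −1.53 at 8 weeks against 24 h (SE 0.27, edgeR, adjusted p = 0.0048). At 24 h against before it was −0.43 (SE 0.25, edgeR, adjusted p = 0.27).

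Spry2, a Sprouty inhibitor of receptor tyrosine kinase signalling, lies on chromosome 14 from 105891947 to 105896819 (minus strand) and was higher at 24 h, most of all in 1 library. It stood at 8.16, 8.08, 9.98, 9.09 and 6.84 FPKM before TAM, at 14.2, 18.3, 9.05 and 41.4 FPKM at 24 h, and at 7.00, 11.4, 6.23 and 8.30 FPKM at 8 weeks. Replicate 3 at 24 h lay within the range from before TAM and the other three 24 h libraries lay above it. The log2 fold change was 1.36 at 24 h against before (SE 0.37, edgeR, adjusted p = 0.021), −1.28 at 8 weeks against 24 h (SE 0.40, edgeR, adjusted p = 0.038) and 0.08 at 8 weeks against before (edgeR, adjusted p = 0.88).

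The Spry2 calls rest on few libraries. The rise at 24 h did not pass without 24 h replicate 4 (0.72, edgeR, adjusted p = 0.075), nor without replicate 5 from before TAM (1.31, edgeR, adjusted p = 0.057). It also missed the threshold with only the 2 groups in the fit (1.34, edgeR, adjusted p = 0.054). The lower level at 8 weeks against 24 h did not pass without 24 h replicate 2 or 4 or without any 1 of the 8-week libraries (edgeR, adjusted p from 0.053 to 0.092).

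Spry4, another Sprouty gene, on chromosome 18, stood at 4.81, 5.90, 6.24, 5.99 and 5.51 FPKM before TAM, at 5.79, 4.96, 2.38 and 4.62 FPKM at 24 h, and at 4.15, 4.15, 3.74 and 4.26 FPKM at 8 weeks. All 8-week libraries were below all libraries from before TAM. The log2 fold change of −0.35 at 8 weeks (SE 0.22, edgeR, adjusted p = 0.24) did not pass. It did pass without 24 h replicate 3, at −0.38 (edgeR, adjusted p = 0.016), and with only the 2 groups in the fit (edgeR, adjusted p = 0.015). At 24 h it was −0.32 (edgeR, adjusted p = 0.35).

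By FPKM, which is per length of transcript, the order of the members changed over time. Before TAM, Fgfr2 averaged highest, then Fgfr1, then Etv5, and the ranges of these neighbours did not overlap. Fgf1, Spry2, Fgfrl1 and Spry4 followed with ranges that overlapped from each to the next, and Fgfr3 was lowest. At 24 h, the ranges from Fgfr2 through Spry2, Fgf1, Fgfr1 and Fgfrl1 to Etv5 overlapped between neighbours. At 8 weeks, Fgfr1 and Fgfrl1 averaged highest with overlapping ranges, at 17.0 ± 2.41 and 15.2 ± 4.20 FPKM (SD, n = 4). Fgfr2 averaged below Spry2 and Fgf1, and its range overlapped both of theirs.

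The genes whose log2 CPM followed Fgfr2 most closely over the 13 libraries were Paqr8 (Pearson r 0.98), Nr5a1 (0.98), Mpdz (0.98), Dab2 (0.97) and Rasal1 (0.97). Nr5a1 is the steroidogenic factor gene of the cortex, and Dab2 marks the zona glomerulosa, its outer zone. Paqr8 averaged 3.55 ± 0.908 FPKM at 8 weeks (SD, n = 4) against 22.6 ± 1.11 FPKM before TAM (SD, n = 5). Etv5 followed Rasal1 (0.98), Fam126a (0.98) and Galnt10 (0.98), and its r with Fgfr2 itself was 0.97. For Fgfr1 the closest were Esrrg (0.95), Arhgap26 (0.94) and Tns1 (0.94). The 13 libraries differ in group, depth and cell makeup, and the part of these differences in the correlations was not tested.

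Other FGF ligand genes passed the test where Fgf1 did not. The list holds 22 genes of the FGF family, those of the intracellular FGF group included. Of these, 7 were tested, and 2 were higher and 1 lower at 8 weeks against before (median log2 fold change 0.60, against 0.03 over all genes). Of all genes 20.5% were higher and 16.4% lower, so 3 of 7 is near the share over all genes. Fgf9, a ligand of the IIIc receptors, stood at 4.11, 5.81, 6.43, 4.49 and 4.17 FPKM before TAM, at 0.536, 0.938, 0.239 and 0.415 FPKM at 24 h, and at 0.582, 0.533, 0.231 and 0.464 FPKM at 8 weeks. Every later library was below every library from before TAM, and the later groups overlapped each other. Its log2 fold change was −3.20 at 24 h (SE 0.40, edgeR, adjusted p = 0.00029) and −3.35 at 8 weeks (SE 0.40, edgeR, adjusted p = 5.9e-05).

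Fgf7 and Fgf10, genes of ligands that the IIIb form of FGFR2 can bind, were higher at 8 weeks. Fgf7 stood at 0.183, 0.411, 0.327, 0.410 and 0.362 FPKM before TAM, at 0.831, 0.564, 0.847 and 0.660 FPKM at 24 h, and at 4.54, 3.93, 2.39 and 2.64 FPKM at 8 weeks. The 3 groups did not overlap. Its log2 fold change was 1.12 at 24 h (SE 0.29, edgeR, adjusted p = 0.016) and 3.43 at 8 weeks (SE 0.30, edgeR, adjusted p = 8.5e-06). On log2(FPKM + 1) the value at 24 h did not pass (0.37, limma, adjusted p = 0.11). Fgf10 averaged 3.59 ± 2.54 FPKM at 8 weeks (SD, n = 4) against 0.430 ± 0.297 FPKM before TAM (SD, n = 5), a log2 fold change of 3.19 (SE 0.82, edgeR, adjusted p = 0.0086).

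At 24 h, 1 ligand gene was higher and 2 were lower (median −0.19), where 12.6% of all genes were higher and 6.63% lower. The second of those lower was Fgf20, a relative of Fgf9, at 0.128 ± 0.130 FPKM at 24 h (SD, n = 4) against 0.937 ± 0.320 FPKM before TAM (SD, n = 5), with a log2 fold change of −2.81 (edgeR, adjusted p = 0.013). Without 24 h replicate 3, 5 genes of this list were called at 24 h. At 8 weeks, 5 were called without 24 h replicate 1 and also without 24 h replicate 4. With 1 library left out at a time, 1851 to 3998 of all genes were called at 24 h and 4153 to 6706 at 8 weeks.

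**Figure D3:**
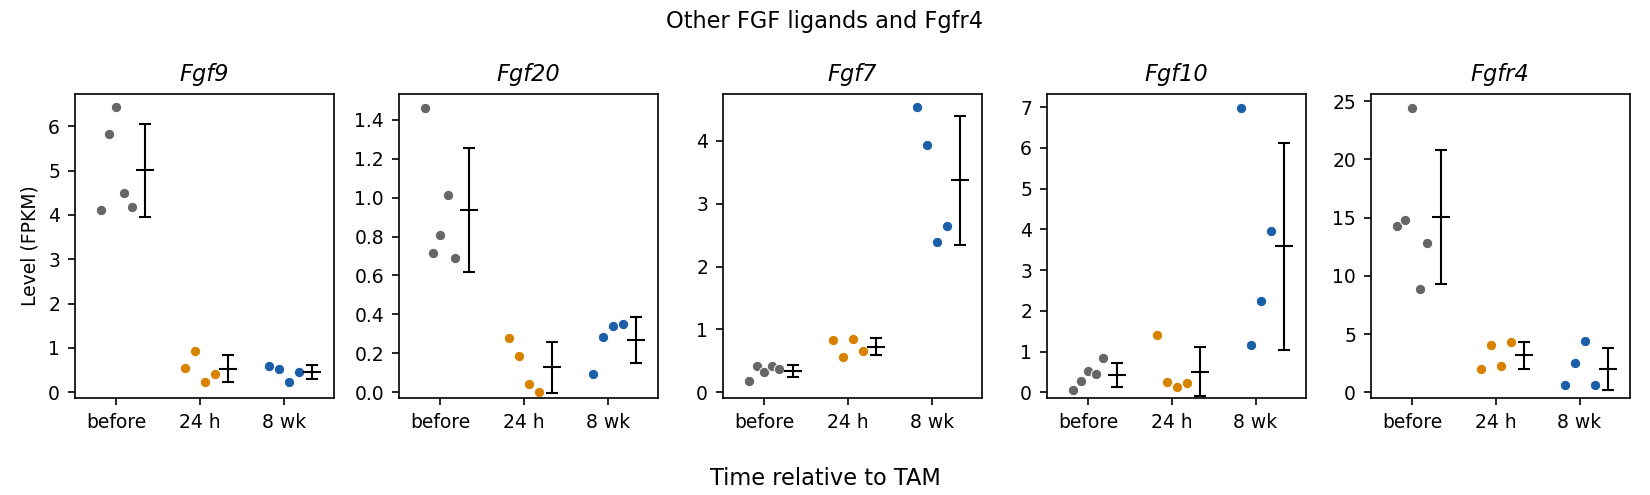
Levels in FPKM (vertical axes, separate scales) of Fgf9, Fgf20, Fgf7, Fgf10 and the receptor gene Fgfr4 in each library before TAM, 24 h after it and 8 weeks after it, with mean and SD (n = 5, 4 and 4). Fgf9 and Fgfr4 are lower at both later times, and Fgf7 is higher in each later group than in the one before it.

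Among 12 receptor and co-receptor genes, 9 were tested beside Fgfr2. At 8 weeks 3 were higher and 2 lower (median log2 fold change 0.77), and at 24 h none was higher and 2 were lower (edgeR). Over all genes, 20.5% were higher and 16.4% lower at 8 weeks, and 12.6% were higher and 6.63% lower at 24 h. At 24 h, 1 was higher at an unadjusted p under 0.05, and none was by DESeq2 or by limma voom with sample weights. Fgfr4, a receptor known for its part in bile acid control in liver, stood at 14.3, 14.8, 24.5, 8.90 and 12.8 FPKM before TAM, at 1.99, 4.02, 2.29 and 4.34 FPKM at 24 h, and at 0.622, 2.47, 4.39 and 0.594 FPKM at 8 weeks. The later groups overlapped each other and lay below the first. Its log2 fold change was −2.73 at 8 weeks (SE 0.61, edgeR, adjusted p = 0.0040) and −2.22 at 24 h (SE 0.59, edgeR, adjusted p = 0.020). The call at 24 h was lost without 24 h replicate 1 (edgeR, adjusted p = 0.052).

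Flrt2, a membrane protein gene of the FLRT family that binds FGF receptors, was higher at 8 weeks by 1.10 on the log2 scale (SE 0.25, edgeR, adjusted p = 0.0046). Klb, the co-receptor gene for endocrine FGFs, was the third of those higher at 8 weeks and is named after its values were seen (log2 fold change 3.34, SE 1.00, edgeR, adjusted p = 0.020). Klb is known from fat and liver, and 4 of 10 fat cell markers were also called higher at 8 weeks by edgeR and 8 by DESeq2. By edgeR, 20.5% of all genes were called higher at that time. The part of fat cells in the Klb value was not tested. Without 24 h replicate 3, 4 genes of this list were called at 24 h. The count over all genes at 24 h ran from 1851 to 3998 with 1 library left out at a time.

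Heparan sulfate genes moved in both directions at 8 weeks. Of 11 core protein genes, 3 were higher and 4 lower (median log2 fold change 0.47), where 20.5% of all genes were higher and 16.4% lower. The syndecan gene Sdc1 averaged 31.3 ± 11.3 FPKM at 8 weeks (SD, n = 4) against 5.53 ± 1.08 FPKM before TAM (SD, n = 5), with a log2 fold change of 2.66 (SE 0.31, edgeR, adjusted p = 5.2e-05). The glypican gene Gpc4 averaged 18.1 ± 2.24 FPKM at 8 weeks against 49.5 ± 5.12 FPKM before TAM (−1.32, SE 0.17, edgeR, adjusted p = 7.9e-05). Gpc3 and Gpc6 were higher by 1.26 and 1.43 on the log2 scale. Without 8-week replicate 1, 4 genes of this list were called at 8 weeks. The count over all genes at 8 weeks ran from 4153 to 6706 with 1 library left out at a time.

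Of 12 genes that build or trim heparan sulfate, none was higher and 4 were lower at 8 weeks (edgeR, median log2 fold change −0.29). The 4 called of 12 are near the 36.9% of all genes called in either direction, and 16.4% of all genes were lower. None was higher at an unadjusted p under 0.05 or by DESeq2, and 1 was by limma voom with sample weights. Ndst1, a sulfotransferase gene, averaged 9.07 ± 3.86 FPKM at 8 weeks (SD, n = 4) against 40.2 ± 3.09 FPKM before TAM (SD, n = 5), with a log2 fold change of −1.99 (SE 0.29, edgeR, adjusted p = 0.00024). Hs6st1 and Hs6st2, which add the 6-O-sulfate that FGF binding uses, had log2 fold changes of −1.18 (edgeR, adjusted p = 0.0070) and −2.68 (edgeR, adjusted p = 0.011). The fourth was Sulf1, a trimming enzyme gene, at −0.68 (edgeR, adjusted p = 0.033), a call that was lost when any 1 of 5 libraries was left out (edgeR, adjusted p up to 0.099).

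In the relay from receptor to MAP kinase, 20 genes were tested, and at 8 weeks 3 were higher and 5 lower (median log2 fold change −0.16), a share near the 36.9% of all genes. Ptpn11, the SHP2 phosphatase gene, was lower, with a log2 fold change of −0.64, and the adaptor gene Shc1 and the small GTPase gene Nras were higher by 0.49 and 0.54 on the log2 scale. Only 4 of the relay genes were called without 8-week replicate 2, and 5 without 8-week replicate 1. Among all genes, 4153 to 6706 were called at 8 weeks with 1 library left out at a time.

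Feedback and target genes of the pathway were lower at 8 weeks in 9 cases and higher in none (edgeR), of 17 tested among 18 listed. The median log2 fold change was −0.92, against 0.03 over all genes, and 16.4% of all genes were called lower. At an unadjusted p under 0.05, 1 was higher, and DESeq2 gave 9 lower and none higher. By limma voom with sample weights 3 were higher and 10 lower. That voom setting called 8101 of all genes in either direction, against 5193 by edgeR. Spry4, Etv5 and Spry2 belong to this list, and Etv5 is among the 9. Leaving out 1 library at a time gave 8 to 11 called, where 4153 to 6706 of all genes were. The list was chosen with earlier results of these libraries known, so this count is a description.

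Spred1, a membrane inhibitor of RAS signalling, stood at 31.5, 29.2, 33.9, 37.9 and 34.8 FPKM before TAM, at 18.5, 17.8, 25.5 and 22.1 FPKM at 24 h, and at 11.6, 12.6, 8.23 and 9.46 FPKM at 8 weeks. The 3 groups were in descending order and did not overlap. Its log2 fold change was −0.66 at 24 h (SE 0.14, edgeR, adjusted p = 0.0058) and −1.55 at 8 weeks (SE 0.14, edgeR, adjusted p = 1.1e-05). Etv1, an ETS factor gene like Etv5, averaged 14.2 ± 1.97 FPKM before TAM (SD, n = 5), 4.00 ± 2.19 FPKM at 24 h (SD, n = 4) and 1.60 ± 0.316 FPKM at 8 weeks (SD, n = 4). Its log2 fold change was −3.04 at 8 weeks (SE 0.40, edgeR, adjusted p = 0.00011).

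Dusp6, the phosphatase gene that switches off ERK, stood at 65.9, 47.2, 64.9, 43.7 and 55.6 FPKM before TAM, at 30.3, 26.8, 12.4 and 33.5 FPKM at 24 h, and at 23.4, 19.4, 20.5 and 19.998 FPKM at 8 weeks. Every later library was below every library from before TAM. Its log2 fold change was −1.06 at 24 h (SE 0.27, edgeR, adjusted p = 0.015), and −1.28 at 8 weeks (SE 0.27, edgeR, adjusted p = 0.0028). Spred2 had a log2 fold change of −1.31 at 8 weeks (edgeR, adjusted p = 0.00016). The others called lower at 8 weeks, named after their values were seen, were Phlda1 (−2.22), Spry3 (−2.38), Etv4 (−1.75) and Spred3 (−0.92). Spry3 and Etv4 were scarce, at 1.17 and 0.625 FPKM before TAM and 0.203 and 0.168 FPKM at 8 weeks. Of the tested genes not called, Spry1, Dusp4, Dusp5, Il17rd, Egr1 and Ier3 averaged higher FPKM at 8 weeks than before TAM. Spry2 and Spry4 averaged lower.

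At 24 h, 2 genes of the list were higher and 4 lower (median −0.43), where 12.6% of all genes were higher and 6.63% lower. Those lower were Etv1, Spred1, Dusp6 and Phlda1, and those higher were Spry2 and Ier3, a stress-responsive early gene named after its values were seen (1.98, SE 0.57, edgeR, adjusted p = 0.028). Without 24 h replicate 3, 5 were higher and 4 lower. Without 24 h replicate 4, none was higher and 3 were lower, Phlda1 being lost (edgeR, adjusted p = 0.053). With 1 library left out at a time, 1851 to 3998 of all genes were called at 24 h and 1782 to 4300 at 8 weeks against 24 h. At 8 weeks against 24 h, 5 were lower and none higher (edgeR; 1 higher at an unadjusted p under 0.05, 1 by DESeq2 and none by limma voom with sample weights), where 10.6% of all genes were lower, and 3 were lower without 24 h replicate 2 or 4 and without 8-week replicate 2, 3 or 4.

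**Figure D4:**
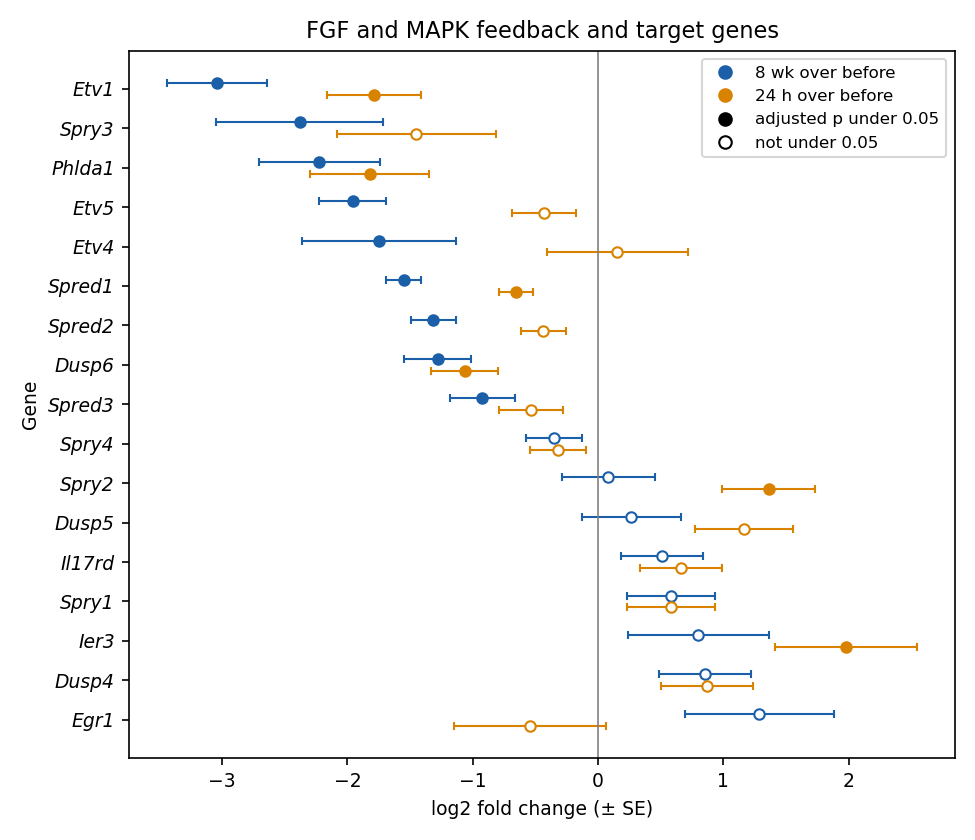
Log2 fold change with its SE (horizontal axis) of the 17 feedback and target genes tested, at 8 weeks over before TAM (blue) and at 24 h over before TAM (orange). Filled points have an edgeR adjusted p under 0.05. At 8 weeks 9 genes are lower and none is higher among the filled points, and at 24 h Spry2 and Ier3 are the filled points to the right of 0.

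In bulk glands, fewer cells of a type and less RNA per cell cannot be told apart, and marker genes of several cell types moved at the same times as the members. The 10 markers of steroid-making cortex summed to 18867 to 25032 FPKM before TAM, 4440 to 19472 FPKM at 24 h and 1602 to 3833 FPKM at 8 weeks, and 6 of the 10 were called lower at 8 weeks. The 8 zona glomerulosa markers summed to 427 to 653, 134 to 679 and 38.8 to 111 FPKM in the same order of times, with 6 of 8 called lower at 8 weeks. By DESeq2, 9 of the 10 cortex markers and 7 of the 8 zona glomerulosa markers were lower at 8 weeks. Of all genes, 16.4% were called lower at 8 weeks by edgeR. Both cortical lists were at their lowest at 8 weeks, as were Fgfr2 and Etv5.

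Macrophage markers summed to 219 to 501 FPKM before TAM, 1429 to 2765 FPKM at 24 h and 3124 to 5035 FPKM at 8 weeks, and 9 of 9 tested were called higher at both later times. Capsule and fibroblast markers summed to 214 to 536, 735 to 1134 and 1130 to 1921 FPKM, with 8 of 10 called higher at 8 weeks. Fat cell markers summed to 188 to 2031, 50.9 to 4700 and 8588 to 17771 FPKM. Of these markers, 4 of 10 were called higher at 8 weeks by edgeR, 8 by DESeq2 and 5 by limma voom with sample weights. Of all genes, 20.5% were called higher at 8 weeks and 12.6% at 24 h by edgeR. Fgf7, Fgf10 and Fgfrl1 were highest in the same group as these lists and as the medulla markers described next.

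Medulla markers summed to 1195 to 5232, 73.3 to 4169 and 5248 to 7749 FPKM, with none of 10 called at 8 weeks by edgeR, 1 higher both by DESeq2 and without adjustment of p, and 7 higher by limma voom with sample weights. Endothelial markers summed to 356 to 399, 180 to 765 and 245 to 358 FPKM. Of 10, 1 was called lower at 8 weeks and 2 higher at 24 h by edgeR. At 8 weeks, DESeq2 called 3 lower, and limma voom with sample weights called 3 higher and 3 lower. That voom setting called 8101 of all genes at 8 weeks against before. Among the markers, Agtr1b and Lep are listed at 0 in 24 h replicate 3. The part of any of these cell types in the member values was not tested.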

How the data were processed

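Total RNA of adrenal glands was made into stranded mRNA libraries, per the labels' protocols. Per the submitters' processing notes, the tools were bcl2fastq 2.17 and TopHat2 2.0.14 and the build was mm10, also called GRCm38. Each deposited table gives an expected count and an FPKM per RefSeq transcript and library, per the file headers; between 43.3% and 46.4% of counts per library are whole to within 1e-06. The tables list 19655 transcripts (before and 8 weeks) and 19191 (24 h), of which 18738 are shared. Expected counts of shared transcripts were summed per gene and rounded. Genes were tested with edgeR 4.0.16 in R 4.3.3 (quasi-likelihood test, TMM scaling, filterByExpr, 1 fit of all 13 libraries, Benjamini-Hochberg adjustment over 14078 genes, threshold 0.05), after a test on simulated counts. FPKM values are sums over the shared models as deposited. Transcript shares were compared by exact two-sided permutation tests over 4 tests. A further deposited table of the authors' own comparison was not used here.

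The members, the 6 pathway lists and the 7 marker lists were chosen with earlier results of these data known. Genes named are the members, up to 4 called genes per pathway list and comparison in order of p, and the closest 5 (Fgfr2) or 3 (Fgfr1, Etv5) genes by Pearson correlation of log2 CPM; others are marked where named. 1 gene and 1 exon sequence that these rules would show are not reported here. Exon positions came from the GENCODE annotation of GRCm38, and the exon sequence from the GENCODE transcript sequences. GENCODE transcripts were linked to the RefSeq models by name. For Fgfr1 and Fgfr2, the differences in width between models were the same in both sources. Paralogs with similar sequence can share reads. Alternatives were DESeq2 1.42.0, no scaling, no low-count filter, 2 groups per fit, a replicate block, limma 3.58.1 voom with quality weights, limma on log2(FPKM + 0.1) and log2(FPKM + 1), all listed transcripts, and leaving libraries out. Same-numbered libraries did not deviate together (r from −0.125 to 0.277), so the numbers were not taken as pairs.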

Additional observations from a re-analysis of the deposited data

Results flagged for a closer look

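In 3 of 33 groups of values examined, 1 library stood far from the others, and chance marks about 1 in 20 groups. Fgfr1 was 10.31 FPKM in 24 h replicate 3, against 17.59 FPKM in the nearest library of its group. Without that library the log2 fold change of Fgfr1 at 24 h against before was −0.70 (edgeR, adjusted p = 0.0087). Fgfr3 is listed at 0 FPKM in 8-week replicate 3, where the nearest library has 0.954 FPKM. The expected count of the same model is 0.0042 there, against 128, 107 and 72.8 in 8-week replicates 1, 2 and 4. Etv5 was 20.44 FPKM in replicate 3 from before TAM, where the nearest library has 14.02 FPKM. With each library left out in turn, the log2 fold change of Etv5 at 8 weeks ran from −2.05 to −1.77 (edgeR, adjusted p at most 0.00088).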

How the results depend on the processing

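Among members, Fgfr1 (8 weeks and 24 h against before), Fgfrl1 (8 weeks against before) and Etv5 (8 weeks against before and against 24 h) kept direction and call in all alternatives run. Leaving out 1 library gave 4153 to 6706 called genes at 8 weeks against before (5193 with all), 1851 to 3998 at 24 h (2708) and 1782 to 4300 at 8 weeks against 24 h (2923), with 3 to 4, 1 to 4 and 1 to 3 members called. With voom weights 8101 and 5378 genes were called at 8 weeks and 24 h against before, and 7895 at 8 weeks with all transcripts of those 2 groups, an alternative added after seeing the data. With 2 groups per fit, 973 genes and 1 member were called at 8 weeks against 24 h. With the replicate block 1312 genes were called at 24 h and 1661 at 8 weeks against 24 h, where 1 member was called; the numbers do not pair the samples. The Spry2 difference at 8 weeks against before turned to −0.0353 without scaling, −0.0223 with the block, −0.0601 on log2(FPKM + 0.1) and −0.052 on log2(FPKM + 1), and ran from −0.0759 to 0.17 leaving out libraries. At 8 weeks against 24 h, Spry4 turned to 0.0075 with the block (−0.31 to 0.12 leaving out libraries), Fgfr1 to −0.0054 without 24 h replicates 3 and 4 (−0.0819 to 0.24), and Fgfr3 ran from −0.44 to 0.20. Differences in model share ran from 8.73 to 20.4 and −0.506 to 4.38 percentage points for Fgfr1 at 8 weeks and 24 h, and from −14.0 to 1.47 and −7.38 to 3.04 for Fgfrl1. Causes were not tested. Dropping the scaling moved the median of all genes by −0.13 at 8 weeks against before. Fgfr3 had few reads throughout, and the part of read number in its missing calls was not tested.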

Other observations

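A further 5 genes of the FGF ligand list, Fgf3, Fgf13, Fgf14, Fgf15 and Fgf18, are listed for the before and 8-week libraries. They entered none of the comparisons over all 13 libraries. Fgf14, a member of the intracellular FGF group known from neurons, averaged 1.16 ± 0.258 FPKM at 8 weeks (SD, n = 4) against 0.348 ± 0.229 FPKM before TAM (SD, n = 5), and its groups did not overlap. Fgf3 averaged 0.867 ± 0.338 FPKM at 8 weeks against 0.280 ± 0.108 FPKM before TAM, without overlap. Fgf15, a gut hormone of bile acid control, averaged 0.643 ± 0.218 FPKM at 8 weeks against 0.181 ± 0.118 FPKM before TAM, without overlap. Fgf13 averaged 0.746 ± 0.438 FPKM at 8 weeks against 0.218 ± 0.190 FPKM before TAM, and Fgf18 averaged 0.597 ± 0.111 FPKM against 0.442 ± 0.329 FPKM, and both overlapped. Of the genes tested over all 13 libraries, 18.1% were higher at 8 weeks without overlap. These 5 genes were scarce before TAM and may be listed only for their level at 8 weeks. Their values are therefore a description and were not tested.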
